A study of Homo sapiens with 4 samples.

Results

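The genes examined here carry the insulin and insulin-like growth factor (IGF) signal from the cell surface to the FOXO transcription factors. They are the receptors *IGF1R* and *INSR*, the receptor adaptors *IRS1* and *IRS2*, the phosphoinositide 3-kinase (PI3K) subunits *PIK3R1* and *PIK3CA*, and the transcription factors *FOXO1*, *FOXO3* and *FOXO4*. They were chosen by name, with earlier results of these data known, and all 9 were found among the 23287 gene symbols of the RNA-seq files. T47D cells, a PR-positive breast cancer line of human origin (PR, the progesterone receptor), were kept in hormone-stripped serum before treatment. The time in this serum was longer for ChIP than for RNA. The RNA-seq libraries came from cells given 10 nM of the synthetic progestin R5020 or its vehicle, ethanol (EtOH), for 3 h, and the PR ChIP-seq library came from cells given 10 nM R5020 for 1 h. Each condition is represented by 1 library, so the differences cannot be set against a spread between replicates and p-values are not given.

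In this pathway a ligand-bound receptor of the insulin or IGF type phosphorylates the IRS adaptors, which recruit PI3K through its regulatory subunit. The lipid made by PI3K activates the kinase AKT, and AKT phosphorylates the FOXO factors, which then leave the nucleus. When the signal is weak the FOXO factors stay in the nucleus and switch on genes of cell cycle arrest, cell death, stress resistance and gluconeogenesis. The pathway is known as a driver of growth in breast epithelium, where IGF and steroid hormone signals meet.

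Of the 11181 PR binding sites, 5 lay within 50 kb of a member, and all 5 lay inside a gene, 4 in *IGF1R* and 1 in *INSR*. Site scores are those of MACS, 10 times the −log10 of its p-value. The *IGF1R* sites had scores of 71.5, 131.09, 115.9 and 82.8 in order from the start of the gene, and the *INSR* site scored 105.9. Over all sites the lowest score was 50, the median 74.5 and the highest 1965, so that 1 site of *IGF1R* was below the median and the other 4 sites were above it. The second *IGF1R* site ranked 667th of the 11181, the highest rank among the 5.

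The central 300 bases of each *IGF1R* site are printed from the plus strand of GRCh37, the assembly of hg19, because these are the stretches of the locus that were recovered with PR. A further site, the closest to *FOXO1* although beyond 50 kb, is shown because *FOXO1* was among the members with the largest changes. Capitals mark the hexamer TGTNCT, an arm of the hormone response element, or its reverse complement AGNACA. The *IGF1R* sites are on chromosome 15, in introns at 65.4, 205.8 and 216.7 kb and in a coding exon at 299.1 kb from the start of the gene. They are chr15:99257996-99258382, chr15:99398241-99398874, chr15:99409254-99409617 and chr15:99491657-99492103. The site near *FOXO1* is chr13:41053692-41054182, beyond the 3′ end of the gene. It lies inside *LINC00598* and inside a long noncoding gene that also overlaps *FOXO1*.
IGF1R at 65.4 kb: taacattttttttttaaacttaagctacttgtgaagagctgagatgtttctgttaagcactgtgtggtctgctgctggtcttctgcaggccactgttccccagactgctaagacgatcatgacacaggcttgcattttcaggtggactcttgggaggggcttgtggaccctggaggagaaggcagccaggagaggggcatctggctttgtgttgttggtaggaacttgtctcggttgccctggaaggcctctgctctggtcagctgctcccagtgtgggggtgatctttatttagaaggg
IGF1R at 205.8 kb: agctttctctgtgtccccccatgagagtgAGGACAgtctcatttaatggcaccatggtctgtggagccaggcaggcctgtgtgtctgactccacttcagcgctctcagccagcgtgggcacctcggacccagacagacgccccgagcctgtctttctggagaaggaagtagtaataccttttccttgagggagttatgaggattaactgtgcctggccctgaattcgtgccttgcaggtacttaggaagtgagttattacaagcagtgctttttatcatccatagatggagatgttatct
IGF1R at 216.7 kb: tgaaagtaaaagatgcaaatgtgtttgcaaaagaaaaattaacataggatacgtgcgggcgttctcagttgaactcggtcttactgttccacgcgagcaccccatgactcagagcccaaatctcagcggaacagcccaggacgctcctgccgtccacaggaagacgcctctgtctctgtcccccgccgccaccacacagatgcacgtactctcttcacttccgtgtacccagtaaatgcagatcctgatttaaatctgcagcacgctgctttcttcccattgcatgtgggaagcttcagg
IGF1R at 299.1 kb: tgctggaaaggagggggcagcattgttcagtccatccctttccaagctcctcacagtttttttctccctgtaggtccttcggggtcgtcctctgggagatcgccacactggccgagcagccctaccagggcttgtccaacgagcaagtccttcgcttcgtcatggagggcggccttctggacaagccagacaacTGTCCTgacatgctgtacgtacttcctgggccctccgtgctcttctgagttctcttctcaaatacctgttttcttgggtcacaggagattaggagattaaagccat
FOXO1 at 186.8 kb: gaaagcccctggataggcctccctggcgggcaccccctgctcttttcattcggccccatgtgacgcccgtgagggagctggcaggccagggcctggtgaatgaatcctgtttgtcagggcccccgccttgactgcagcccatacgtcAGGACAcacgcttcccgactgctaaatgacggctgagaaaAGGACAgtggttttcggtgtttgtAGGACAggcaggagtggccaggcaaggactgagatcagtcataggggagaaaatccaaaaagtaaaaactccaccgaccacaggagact

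None of these 5 windows holds the full palindrome, GNACA and TGTNC with 3 bases between them, and none holds the forkhead motif TGTTTAC on either strand. The palindrome was in 1.89% of the 300-base centres of all sites on assembled chromosomes, and in 0.461% of windows 5 kb away. The hexamer, which overlaps the palindrome, was in the second and last *IGF1R* windows, and the window near *FOXO1* held 3 copies. Of the sites between 50 and 100 kb not printed here, the second one of *FOXO1* held no copy and that of *IRS2* held 2. The number of copies was not compared with other sites. The hexamer was present in 52.5% of all sites and in 51.1% of the windows 5 kb away, so its presence does not set these sites apart. The forkhead motif was in 2.58% of all sites and in 3.32% of the windows 5 kb away.

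**Figure D1:**
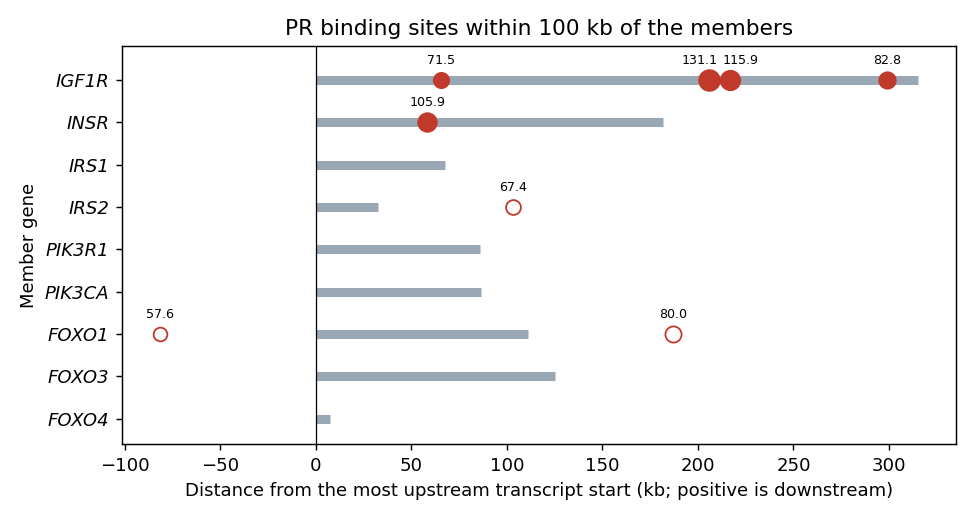
Position of the PR binding sites within 100 kb of the 9 members. The horizontal axis is the distance in kb from the most upstream transcript start, the grey bars are the extents of the genes, and circles are sites with the score printed above (area in proportion to the score, filled within 50 kb and open beyond it). The filled circles are on *IGF1R* and *INSR* alone, and *IRS1*, *PIK3R1*, *PIK3CA*, *FOXO3* and *FOXO4* have no site in the range shown.

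The other 7 members had no PR binding site within 50 kb. The closest site was 70.3 kb from *IRS2* and 75.6 kb from *FOXO1*, and a second site was 81.4 kb from *FOXO1* on the other side, with a score of 57.65. The closest site was 149 kb from *FOXO4*, 213 kb from *IRS1*, 216 kb from *PIK3CA*, 233 kb from *PIK3R1* and 602 kb from *FOXO3*. A site within 50 kb is common in these data, since 52.7% of the 11018 genes that reached an FPKM of 1 in either condition had one, and 53.5% of the 1648 such genes with an extent of at least 100 kb. *IGF1R* extends over 315 kb, *INSR* over 182 kb, *FOXO3* over 125 kb and *FOXO1* over 111 kb. None of the 5 sites within 50 kb of a member lay within 50 kb of a transcription start of that gene.

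Expression is given as FPKM, fragments scaled by transcript length and by library size, summed over the RefSeq transcripts of a gene, and can be compared between genes. In EtOH-treated cells the order of the members was *PIK3CA*, *IGF1R*, *PIK3R1*, *FOXO3*, *FOXO4*, *FOXO1*, *IRS1*, *IRS2* and *INSR*. In R5020-treated cells *IGF1R* was first and *PIK3R1* second, and the 3 FOXO genes stood close together at 5.01 to 5.19 FPKM. This order holds for the deposited FPKM. The FPKM of *PIK3CA* lies below its own deposited interval, and at the midpoint of the intervals *PIK3CA* was first in both libraries, at 13.7 in EtOH and 15.03 in R5020, where *IGF1R* was at 14.5 and *PIK3R1* at 11.1, and *FOXO1* was at 3.90 in R5020. Log2 fold changes compare R5020 with EtOH after 1 was added to each FPKM, which understates the change of a low gene, and a gene was counted at 1.5-fold on this scale if it reached an FPKM of 1 in either condition. Of the 9 members 8 passed this filter. Of these 8, *IGF1R*, *PIK3R1*, *FOXO1* and *FOXO4* were higher by 1.5-fold or more under R5020, the other 4 changed less and 0 were lower.

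Over all 11018 genes that passed, 7.67% were higher and 4.14% lower by 1.5-fold or more. At 2-fold the shares were 3.43% and 1.31%, and 3 members, *IGF1R*, *FOXO1* and *FOXO4*, were higher. The median log2 fold change was 0.61 over the 8 members and 0.01 over all genes that passed. The former leaves out *INSR*, which did not pass, and includes *IRS1* and *IRS2*, which passed only through R5020. Since the members were chosen with earlier results known, the difference between the medians is not a test. The share of higher genes moved with transcript length. It was 10.5% among the 1333 genes with a mean transcript length of at least 6000 nt and 6.15% among the 3187 below 2000 nt, and the transcripts detected from the members are 3183 to 11242 nt long. The number of members counted as higher was again 4 after a linear trend on length had been removed.

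**Figure D2:**
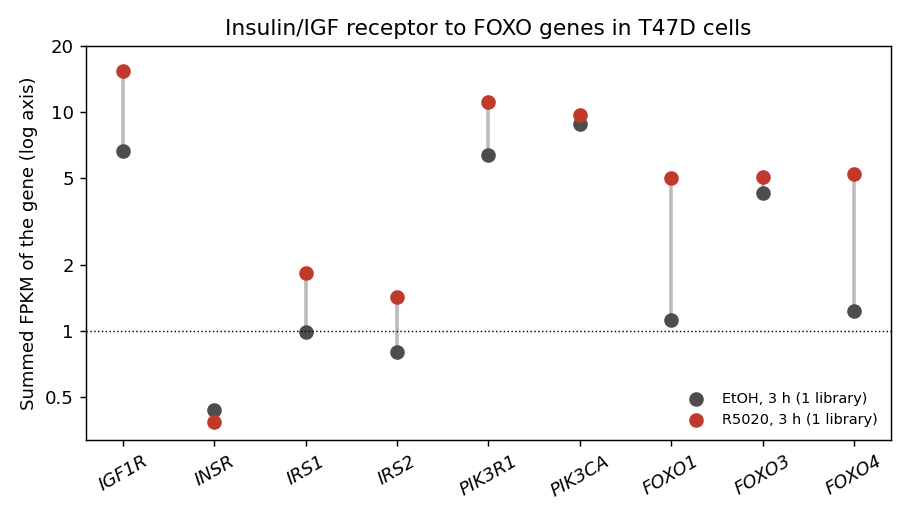
Summed FPKM of each member, on a log axis, in the EtOH library (grey) and the R5020 library (red), 1 library each, with the dotted line at an FPKM of 1. The gap is widest for *FOXO1* and *FOXO4*, which start near 1 and end near 5, and *INSR* lies below 1 in both.

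The receptors differed from each other. *IGF1R*, the receptor tyrosine kinase for IGF1 and IGF2 (chr15:99192761-99507759), stood at 6.64 FPKM under EtOH and at 15.3 under R5020 (log2 fold change 1.098). The ratio without a pseudocount was 2.31, with a 95% interval from counting error of 2.22 to 2.41, based on the equivalent of 3500 and 7847 fragments. *INSR*, the insulin receptor (chr19:7112266-7294011), stood at 0.434 FPKM under EtOH and at 0.383 under R5020. Its ratio of 0.883 had a counting interval of 0.706 to 1.104, which spans 1, from about 174 and 152 fragments. *IGF1R* was therefore 15.3 times as high as *INSR* in EtOH and 40.02 times as high in R5020. All intervals of this kind cover counting error and not the spread between cultures.

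The files separate the 2 *INSR* transcripts, which differ by 36 nt. All of the estimated signal was assigned to the shorter, NM_001079817, known to encode the receptor isoform that also binds IGF2 well. The longer, NM_000208, was listed at 0 in both libraries. Transcripts this alike share nearly all of their reads, and the assignment rests on the few that do not.

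The adaptors were low in both libraries. *IRS1*, which couples the receptors to PI3K (chr2:227596033-227663506), stood at 0.990 FPKM under EtOH and at 1.83 under R5020 (log2 fold change 0.51), below the 1.5-fold threshold on this scale. *IRS2*, the second widely expressed adaptor (chr13:110406184-110438914), stood at 0.805 and 1.42 (0.43). Without a pseudocount the ratios were 1.85 for *IRS1* (counting interval 1.64 to 2.09) and 1.77 for *IRS2* (1.51 to 2.08). Both genes thus stood under the threshold with a pseudocount of 1 and above it with a pseudocount of 0.1. *IRS1* was 1.23 times as high as *IRS2* in EtOH and 1.29 times as high in R5020. The FPKM of *IRS2* lies above its deposited interval in both libraries, and at the midpoints, 0.420 and 0.703 for *IRS2*, these ratios were 2.23 and 2.45.

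Of the PI3K subunits, the regulatory one was higher in R5020 and the catalytic one was not past the threshold. *PIK3R1* (chr5:67511584-67597649) stood at 6.34 FPKM under EtOH and at 11.05 under R5020 (log2 fold change 0.71), a ratio of 1.74 with a counting interval of 1.65 to 1.84. *PIK3CA*, the p110α catalytic subunit (chr3:178866311-178952497), stood at 8.80 and 9.70 (0.13). The ratio of *PIK3R1* to *PIK3CA* in FPKM was 0.721 in EtOH and 1.14 in R5020. At the midpoints of the deposited intervals it was 0.464 and 0.738, so that *PIK3CA* was the higher in both libraries.

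The difference in *PIK3R1* was in its longest transcript. NM_181523, which starts most upstream and encodes p85α, stood at 4.13 FPKM under EtOH and at 8.62 under R5020, a ratio of 2.09 (counting interval 1.95 to 2.23). NM_181524, which starts 72.7 kb downstream and lacks the first part of the p85α sequence, stood at 2.21 and 2.42, and its ratio of 1.097 had an interval of 0.981 to 1.23, which spans 1. The other 2 transcripts, NM_181504 and NM_001242466, were listed at 0 in both libraries. The share of the gene's FPKM in NM_181523 was 65.2% in EtOH and 78.1% in R5020.

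**Figure D3:**
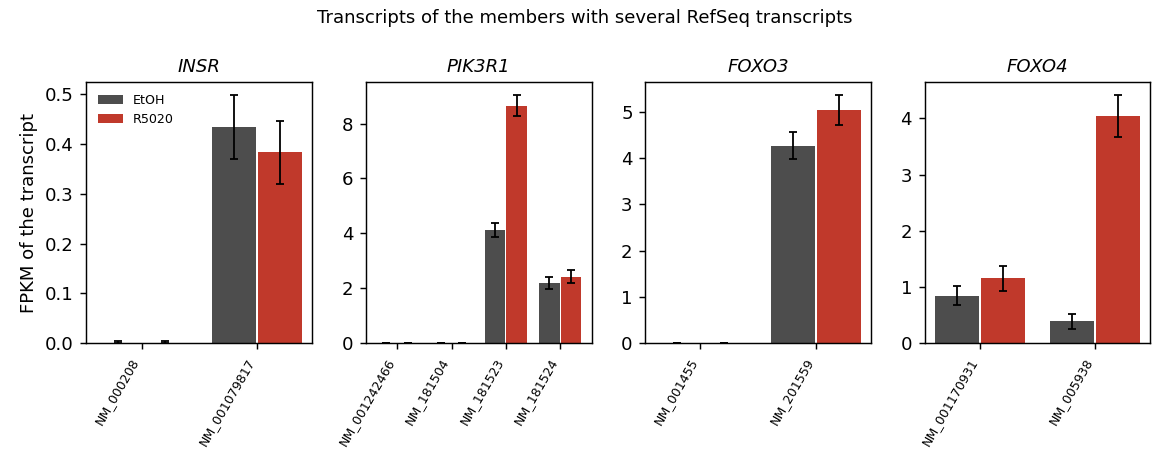
FPKM of each RefSeq transcript of the 4 members with several transcripts, in EtOH (grey) and R5020 (red), 1 library each, with the interval deposited by the authors as error bars. The intervals of the libraries are apart for NM_181523 of *PIK3R1*, for NM_201559 of *FOXO3* and for NM_005938 of *FOXO4*, and they overlap for NM_001079817 of *INSR*, NM_181524 of *PIK3R1* and NM_001170931 of *FOXO4*.

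The FOXO genes encode transcription factors that bind the same core sequence, and *FOXO1* and *FOXO4* were the members with the largest changes. *FOXO1* (chr13:41129801-41240734) stood at 1.12 FPKM under EtOH and at 5.01 under R5020 (log2 fold change 1.501), a ratio of 4.46 with a counting interval of 3.93 to 5.07. *FOXO4* (chrX:70315999-70323384) stood at 1.24 and 5.19 (1.47), a ratio of 4.20 (3.57 to 4.95). *FOXO3* (chr6:108881026-109005971) stood at 4.26 and 5.03 (0.20), a ratio of 1.18 (1.0997 to 1.27), below the threshold.

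*FOXO3* had the highest FPKM of the FOXO genes in the vehicle. It held 64.35% of the summed FPKM of the 3 genes in EtOH, against 17.0% for *FOXO1* and 18.7% for *FOXO4*. In R5020 the shares were 33.02% for *FOXO3*, 32.9% for *FOXO1* and 34.1% for *FOXO4*. The sum itself was 6.62 in EtOH and 15.2 in R5020. The FPKM of *FOXO1* lies above its deposited interval in both libraries, so these shares hold for the deposited FPKM. At the interval midpoints in R5020, *FOXO1* was at 3.90, below *FOXO3* at 5.04 and *FOXO4* at 5.19.

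The 2 transcripts of *FOXO4* start at the same position and differ by 165 nt in length. The longer, NM_005938, stood at 0.389 FPKM under EtOH and at 4.04 under R5020, a ratio of 10.4 (counting interval 7.97 to 13.7, from about 60.8 and 601 fragments). The shorter, NM_001170931, stood at 0.847 and 1.15, a ratio of 1.36 (1.07 to 1.73). The longer made up 31.5% of the FPKM of *FOXO4* in EtOH and 77.8% in R5020, so that the leading transcript of the gene was not the same in the libraries. The split between transcripts is an estimate by Cufflinks from shared reads, an error that the counting intervals do not cover.

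All of the FPKM of *FOXO3* was assigned to NM_201559, and NM_001455, which starts 1.04 kb downstream, was listed at 0 in both libraries. The value of *FOXO3* is uncertain because reads with several positions were discarded and the near copy *FOXO3B* lies on chromosome 17. *FOXO3B* stood at 1.07 FPKM under EtOH and at 1.02 under R5020. *FOXO1* has the copy *FOXO1B* on chromosome 5. GENCODE places long noncoding genes that overlap *IGF1R* and *IRS2* on the opposite strand, and others that overlap *IGF1R* and *FOXO1* on the same strand. Reads of the latter cannot be told apart by strand. How strand was used in the authors' estimates is not given in the sources used here. Of the 15 transcripts of the members, those of *IGF1R*, *IRS2*, *PIK3CA* and *FOXO1* had an FPKM outside their own deposited interval in both libraries. For *FOXO1* the interval was 0.763 to 1.11 in EtOH and 3.57 to 4.22 in R5020, and for *PIK3CA* it was 13.01 to 14.4 and 14.3 to 15.7, so that the *FOXO1* intervals lay apart and those of *PIK3CA* overlapped.

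**Figure D4:**
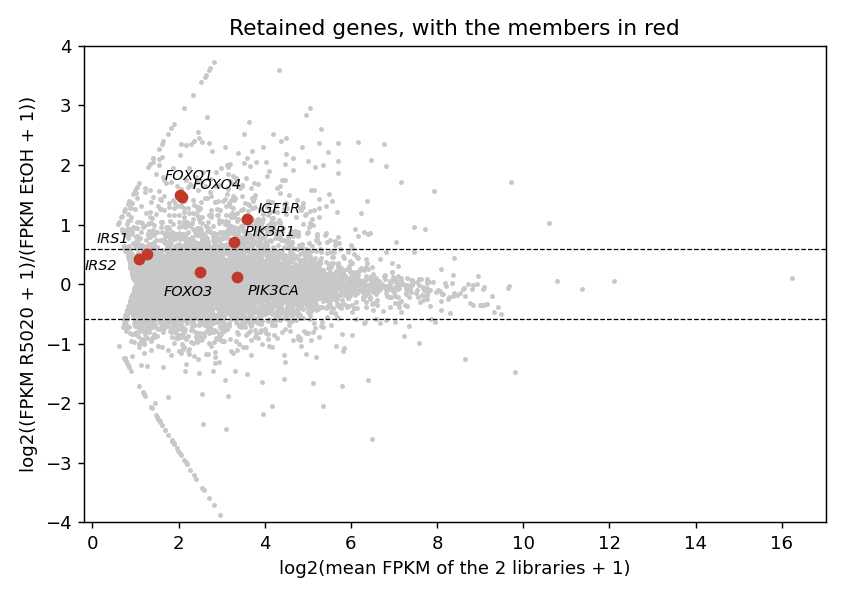
Log2 fold change of R5020 over EtOH (vertical axis, pseudocount of 1) against the log2 of the mean FPKM of the 2 libraries plus 1 for the 11018 genes that passed the filter (grey), with 8 members in red and dashed lines at 1.5-fold. *FOXO1* and *FOXO4* nearly coincide, at log2 fold changes of 1.501 and 1.47, and 50 genes lie outside the range drawn. These include *KRT8* and *KRT18*, whose EtOH estimates failed.

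The genes most like each changed member were sought by the Euclidean distance of log2(FPKM + 1) over the 2 libraries, a likeness that rests on a pair of values per gene. For *FOXO1* they were *DUSP1* (distance 0.051), *ERN1* (0.071) and *FOXO4* (0.086). For *FOXO4* they were *FOXO1*, *MYO10* and *SPATA13*. For *IGF1R* they were *WWC1* (0.019), *NOL3* (0.032) and *PISD* (0.092), and for *PIK3R1* they were *SEC24B* (0.029), *OSGIN1* (0.038) and *GCLC* (0.054).

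The promoters of the 9 members, taken from RefSeq on GRCh38.p14 as 250 bases before to 50 bases after the start, held no full palindrome, which was in 0.388% of 27305 promoters. The hexamer TGTNCT was in those of *FOXO3* and *IRS1*, and in 41.4% of all promoters. The forkhead motif TGTTTAC was in those of *FOXO4* and *PIK3CA*, and in 3.41% of all. No PR binding site lay at the promoter of any member.

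The rest of the pathway was followed in 7 lists with 111 genes, of which 110 were in the files and 89 passed the filter. Of the 89 genes, 18 (20.2%) were higher and 6 (6.74%) lower by 1.5-fold or more, against 7.67% and 4.14% of all genes. The lists were written with earlier results of these data known, so the difference between these shares is not a test of the pathway. The median log2 fold change of the 89 genes was 0.06. A PR binding site lay within 50 kb of 53 of the 89 (59.6%), against 52.7% of all genes, and of 8 of the 18 higher and 5 of the 6 lower ones. Over all genes the corresponding shares were 61.4% of the higher and 61.0% of the lower genes.

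The ligands were low or listed at 0. *IGF1* was at 0.140 FPKM under EtOH and 0.161 under R5020, *IGF2* at 0.590 and 0.452, and *INS* was listed at 0 in both. Of the 10 genes of ligands and binding proteins 4 passed the filter, 0 were higher and 1 (25%) was lower. Among all genes 7.67% were higher and 4.14% lower. *IGFBP5*, which binds IGFs outside the cell and was the most abundant gene of the list, fell from 158 to 101 FPKM (log2 fold change −0.64). *IGFBP4*, a further binding protein, had 17.04 and 11.8 (−0.50), and *IGFBP2* 18.9 and 18.7.

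Of the 11 adaptors and receptor regulators that passed the filter, 4 (36.4%) were higher and 1 (9.09%) was lower. Over all genes the shares were 7.67% and 4.14%. *GRB10*, an inhibitory adaptor of both receptors, rose from 6.08 to 16.7 FPKM (log2 fold change 1.32). *SOS1*, the exchange factor that links receptors to RAS, rose from 4.62 to 11.6 (1.16), and *GRB2*, its partner, from 18.4 to 34.7 (0.88). *ENPP1*, an inhibitor of the insulin receptor, rose from 4.92 to 10.8 (0.996). *GRB7*, an adaptor of the *GRB10* family, fell from 3.11 to 0.988 (−1.05).

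Among the other PI3K subunits 2 of 7 (28.6%) were higher and 1 (14.3%) was lower, against 7.67% and 4.14% of all genes. The catalytic subunit gene *PIK3CB* rose from 10.4 to 18.5 FPKM (0.78) and the regulatory *PIK3R2* from 5.14 to 8.38 (0.61), whereas the regulatory *PIK3R3* fell from 9.28 to 3.08 (−1.33). *PIK3R3* thus moved opposite to *PIK3R1*, which encodes a related subunit. All 9 lipid and AKT phosphatases that passed the filter changed by less than 1.5-fold.

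Of the 20 AKT and mTOR kinases and regulators that passed, 2 (10%) were higher and 0 lower, against 7.67% and 4.14% of all genes. *PDPK1*, the kinase that activates AKT, rose from 12.7 to 26.5 FPKM (1.01). *SGK1*, a kinase related to AKT that also phosphorylates FOXO factors, went from 0.0388 to 3.28 (2.04), with the equivalent of only 4.68 fragments in EtOH and a counting interval of the ratio from 35.9 to 262. *SGK1* passed the filter only through R5020. *AKT1* had 27.5 and 22.4 (−0.29) and *AKT2* 3.75 and 4.09 (0.10). Of the 16 FOXO relatives and regulators, *USP7*, a deubiquitinase that acts on FOXO factors, rose from 26.5 to 45.8 (0.77) and the other 15 changed less. The share of higher genes was thus 6.25%, against 7.67% of all genes.

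Of the 24 textbook FOXO target genes that passed the filter, 9 (37.5%) were higher and 3 (12.5%) lower in R5020. Over all genes the shares were 7.67% and 4.14%. *PDK4*, *KLF15* and *G6PC* were below an FPKM of 1 in EtOH and passed the filter only through R5020. *BBC3* passed only through EtOH. The list was written with earlier results of these data known, so the difference between these shares is not a test. The median log2 fold change of the 24 was 0.08. The list pools genes that FOXO factors activate with genes they repress, so its counts give no direction of FOXO activity. On the scale with a pseudocount of 1 the largest rise was that of *CCND1*, the cyclin D1 gene, which FOXO factors are known to repress, from 22.2 to 120.4 FPKM (2.38). It was followed by *PDK4*, which restrains glucose oxidation, from 0.147 to 4.03 (2.13), *GADD45A*, a growth arrest gene, from 1.28 to 6.09 (1.64), and *KLF15*, a regulator of gluconeogenic genes, from 0.148 to 2.51 (1.61). The other 5 higher genes were *G6PC* (log2 fold change 1.53), *SOD2* (1.39), *BNIP3* (1.23), *BCL2L11* (1.13) and *BCL6* (0.66). *BCL2L11*, which like the lower gene *BBC3* promotes cell death, rose from 1.75 to 4.99 FPKM. Without a pseudocount the order was another, with ratios of 56.9 for *G6PC*, a gene of gluconeogenesis (counting interval 19.3 to 278, from about 2.71 fragments in EtOH), 27.4 for *PDK4* (18.7 to 41.9), 17.0 for *KLF15* (10.7 to 28.6) and 5.41 for *CCND1* (5.24 to 5.59). The 3 lower genes were *BBC3*, which promotes cell death, from 2.06 to 0.541 (−0.99), *TNFSF10*, which encodes the death ligand TRAIL, from 4.29 to 1.86 (−0.89), and *CCNG2*, a cyclin of cell cycle arrest, from 25.7 to 14.2 (−0.81). The cell cycle inhibitors *CDKN1A* and *CDKN1B* had log2 fold changes of −0.04 and 0.05.

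**Figure D5:**
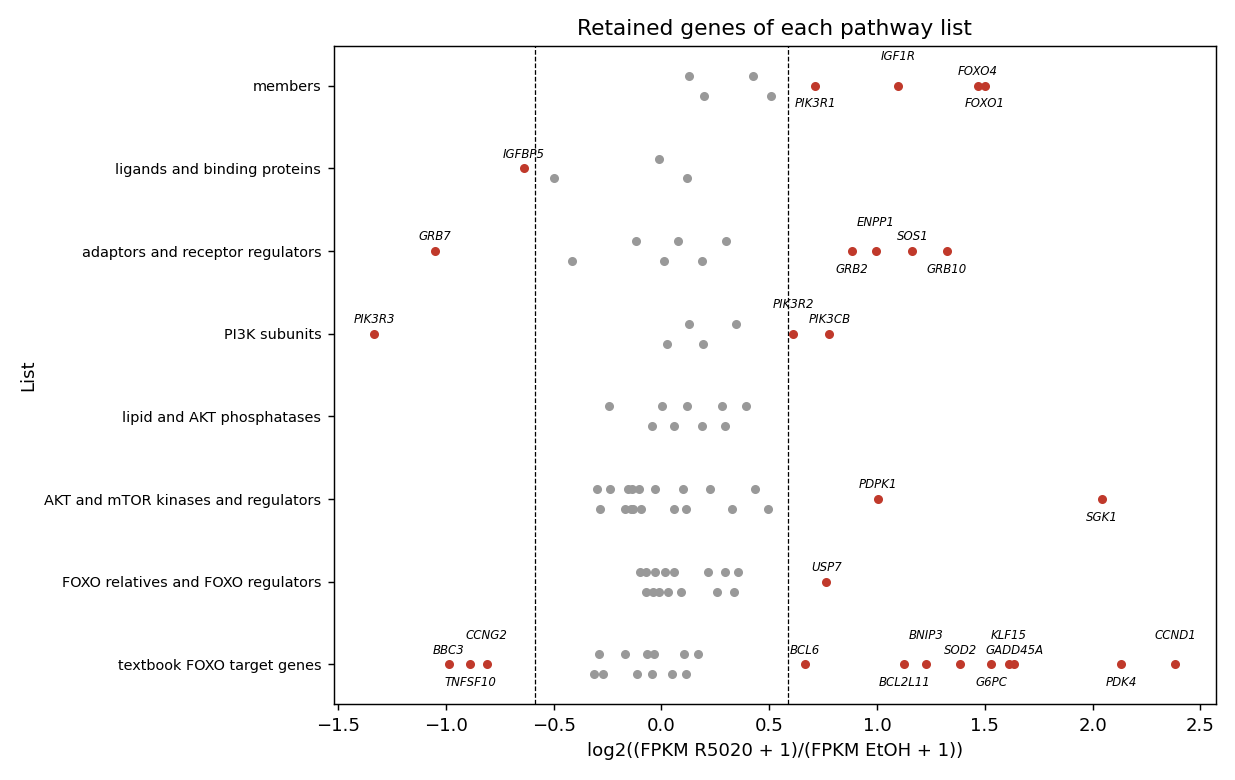
Log2 fold change of R5020 over EtOH (pseudocount of 1) for the members and for each gene of the 7 lists that passed the filter, 1 point per gene, red and named if changed at least 1.5-fold (dashed lines). Changed genes are present among the members and in 6 of the 7 lists, and the phosphatases hold none.

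Of 8 luminal marker genes, the 6 with an estimate in both libraries stood at 17.2 to 608 FPKM in EtOH and at 10.9 to 477 in R5020. Among them *FOXA1* fell from 64.3 to 14.7 (log2 fold change −2.05), *GATA3* from 253 to 126 (−0.998), *ESR1* from 17.2 to 10.9 (−0.61) and *PGR* from 23.7 to 15.3 (−0.60). The 3 basal markers were at most 0.143 and 0.232. Of 5 markers of stroma, endothelium and blood, *COL1A1* stood at 5.12 and 3.31, *VIM* at 0.360 and 0.527 and *PECAM1* at 0.222 and 0.315, and *PTPRC* was at 0.0135 and 0.00574 and *COL3A1* was listed at 0. The part of these markers in the members' values was not tested. *KRT8* and *KRT18* were listed at 0 in EtOH with a failed estimate, so their values were not used as markers. Both stayed among the genes that passed the filter and were counted as higher in the shares over all genes. No member had a failed estimate. The coverage summed over the listed transcripts was equivalent to 35151493 reads of 50 nt in EtOH, without the failed estimates, and to 36203604 in R5020, which is not the number of reads sequenced. Fewer copies per cell and fewer expressing cells cannot be told apart in bulk RNA.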

How the data were processed

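RNA-seq of T47D cells (R5020 or EtOH, 1 library each) and 1 PR ChIP-seq library were analysed. Input DNA was not used here. The authors trimmed 50-nt paired-end reads, mapped them with TopHat (hg19), removed multi-mapping reads and quantified transcripts with Cufflinks. The authors deposited an FPKM, an interval and a coverage signal per RefSeq transcript. For ChIP-seq the authors aligned reads with Bowtie 1.1.2 (submitters' processing notes) and called sites with MACS against input, depositing positions with a score.

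Transcript FPKM were summed by gene symbol, and genes that reached an FPKM of 1 in either condition were kept. Failed estimates were not removed. Fold changes used a pseudocount of 1 and a threshold of 1.5-fold, without the p-value that the authors used beside it. Fragments were coverage times length over 100, and counting intervals are exact conditional binomial (Clopper-Pearson, 95%) scaled to the FPKM ratio. Sites were tied to genes by their nearest edge, coordinates are 1-based, and introns and exons are from GENCODE 44 on GRCh37. Motifs were searched on both strands in the central 300 bases of the 11178 sites on assembled chromosomes. The sequence of 1 member site is not reported here.

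With 1 library per condition there was no test. The named genes are the members, up to 4 genes per list and direction that changed 1.5-fold, and the 3 nearest genes in pattern. Unchanged or low genes were given for context and chosen after their values were seen. The remaining higher FOXO target genes, beyond the limit of 4, were also added after their values were seen. Members and lists were chosen with earlier results of these data known. Alternatives covered pseudocount, threshold, filter, scaling, transcript choice, interval midpoint, site distance, site score and, added after seeing the data, transcript length and levels at the interval midpoint. The scripts were tested on simulated data. Python 3.11.15, pandas 2.3.3, numpy 2.4.6, scipy 1.17.1, pysam 0.24.0 and matplotlib 3.10.9 were used.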

Additional observations from a re-analysis of the deposited data

How the results depend on the processing

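No paired analysis was possible because there was 1 library per condition, and no replicate could be left out. The number of members at least 1.5-fold higher was 4 with the filter on both conditions, with no filter, after rescaling to a median log2 ratio of 0, with the highest transcript by mean FPKM and after removal of the length trend, 3 at 2-fold, and 6 with a pseudocount of 0.1, where *IRS1* and *IRS2* joined. It was 0 for lower members in each of these. Pathway genes, for which the filter on both conditions was not run, numbered 17 to 19 higher and 6 lower under the other settings, except at 2-fold, with 12 higher and 2 lower.

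With a pseudocount of 0.1 the log2 fold changes were 1.197 for *IGF1R*, −0.14 for *INSR*, 0.83 for *IRS1*, 0.75 for *IRS2*, 0.79 for *PIK3R1*, 2.06 for *FOXO1* and 1.99 for *FOXO4*. Without a pseudocount they were 1.21, −0.18, 0.89, 0.82, 0.80, 2.16 and 2.07 in the same order. The highest transcript gave 0.91 for *PIK3R1* and 1.86 for *FOXO4*. The midpoint of the deposited interval gave 1.34 for *FOXO1* and 0.26 for *IRS2*. Removing the trend on transcript length gave 0.999 for *IGF1R*, −0.14 for *INSR* and 0.64 for *PIK3R1*. Every other log2 fold change of a member under these alternatives stayed within its counting interval, converted to the scale with a pseudocount of 1, and no member changed sign. *FOXO1* had a larger change than *FOXO4* except with the highest transcript (1.501 against 1.86) and at the interval midpoint (1.34 against 1.47). For levels at the midpoint, an alternative added after seeing the data, the ratio of *PIK3R1* to *PIK3CA* fell below 1 in R5020 (0.738), and that of *IGF1R* to *INSR* was 14.5 in EtOH and 37.7 in R5020.

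Sites near members numbered 8 within 100 kb, 5 within 10 kb, 3 at a score of at least 100 and 0 within 50 kb of a transcription start. The members concerned were 4, 2, 2 and 0. Pathway genes with a site were 62, 36, 19 and 44 of 89, and the shares of all genes moved likewise, to 64.3%, 33.0%, 18.1% and 45.01%. The last share is over the 9672 genes with a known strand. Without a pseudocount, the counting intervals of the changed members lay above a ratio of 1.5, and so did those of *IRS1* and *IRS2*. The intervals of *PIK3CA* (1.03 to 1.18) and *FOXO3* (1.0997 to 1.27) excluded a ratio of 1 but lay below 1.5. *INSR* could be resolved only to 0.706 to 1.104. The spread between cultures is unknown.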
